A study of Rattus norvegicus with 5 samples.

Results

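Smooth muscle contractile genes and their transcriptional regulators were examined in rat tendon stem/progenitor cells (TSPCs) after long-term culture with prim-O-glucosylcimifugin (POG). The genes were the smooth muscle myosin heavy chain Myh11, the regulatory light chain Myl9, the actins Actg2 and Acta1, calponin Cnn1, smoothelin Smtn, the coactivator myocardin (Myocd) and serum response factor (Srf). They were picked by gene symbol, with earlier results of these data known. Each was measured by 1 probe set, so they made up 8 of the 10141 probe sets in the deposited table. They were also 8 of the 7235 genes with a named probe set there. The sources do not state by which rule these probe sets were kept for the table, so every share and rank below refers to the table and not to the whole array. TSPCs are tendon-resident cells that self-renew and form tendon fibroblasts. Here they came from the Achilles tendons of 3-month-old male Sprague-Dawley rats and were made senescent by serial passage. POG-treated cells received 20 μM POG, a chromone from Saposhnikovia root, dissolved in dimethyl sulfoxide (DMSO), at every passage between passage 3 and passage 12. DMSO-treated cells were passaged alongside with an equal amount of the solvent and no POG, so both groups carried DMSO and both were harvested at passage 12. There were 2 POG arrays and 3 DMSO arrays, with 1 array for each sample. Untreated cells, earlier passages and other doses were not part of the array comparison, so each difference below sets POG plus solvent against solvent at passage 12.

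Smooth muscle contraction rests on myosin II filaments that pull on actin filaments once the regulatory light chain is phosphorylated, while calponin, smoothelin and transgelin bind the actin filament. The genes for these proteins are classically controlled by SRF, a DNA-binding factor that recognises the CArG box, and by its coactivators, of which myocardin is largely restricted to smooth and cardiac muscle and the myocardin-related factors are driven by the pool of free actin. Ternary complex factors of the Ets family bind SRF as well and lead it to immediate early growth genes. In tendon and other connective tissue, fibroblasts that switch on part of the smooth muscle programme are known as myofibroblasts.

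The CArG box consists of 2 C bases, 6 bases that are each A or T, and 2 G bases, and it reads as a CArG box on either strand. Promoter windows of RefSeq genes on the GRCr8 assembly, with 250 bases before the transcription start and 50 after it, were searched for this motif as the only motif. The windows of Srf, Acta1 and the related smooth muscle actin Acta2 are shown because they held a match or a near match. Acta2 was the only related gene whose own window was read. Bases in capitals mark a full CArG box, or a near match in which 5 of the 6 central bases were A or T.
Srf, chr9:21923826-21924125, plus strand: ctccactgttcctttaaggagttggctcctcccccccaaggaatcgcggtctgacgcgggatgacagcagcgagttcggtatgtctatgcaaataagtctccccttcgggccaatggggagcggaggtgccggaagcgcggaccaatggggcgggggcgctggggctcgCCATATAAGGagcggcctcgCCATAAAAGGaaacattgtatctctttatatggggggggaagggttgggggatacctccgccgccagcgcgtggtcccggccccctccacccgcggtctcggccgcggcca
Acta1, chr19:68784145-68784444, minus strand: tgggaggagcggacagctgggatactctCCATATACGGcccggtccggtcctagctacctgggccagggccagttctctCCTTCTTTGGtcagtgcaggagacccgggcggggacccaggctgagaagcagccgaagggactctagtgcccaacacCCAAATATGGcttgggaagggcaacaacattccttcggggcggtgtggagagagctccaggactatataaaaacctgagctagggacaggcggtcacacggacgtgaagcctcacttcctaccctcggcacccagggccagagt
Acta2, chr1:241172454-241172753, minus strand: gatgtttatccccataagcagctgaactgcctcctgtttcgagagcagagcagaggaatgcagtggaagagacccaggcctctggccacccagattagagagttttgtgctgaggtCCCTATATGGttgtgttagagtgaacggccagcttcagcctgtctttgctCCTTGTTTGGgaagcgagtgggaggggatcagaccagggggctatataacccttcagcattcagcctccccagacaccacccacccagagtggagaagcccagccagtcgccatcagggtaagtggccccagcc
The Srf window held 2 full boxes, CCATATAAGG at 81 to 72 bases before the start and CCATAAAAGG at 61 to 52 bases before it. The Acta1 window held 1 full box, CCAAATATGG at 94 to 85 bases before the start, and 2 near matches, CCATATACGG and CCTTCTTTGG. The Acta2 window held 0 full boxes and 2 near matches, CCCTATATGG and CCTTGTTTGG. Of all 33469 windows in the table, 548 (1.64%) held a full box and 2712 (8.1%) a near match. Windows for Actg2, Cnn1 and Smtn held 0 full boxes and 0 near matches, and the Actg2 window belonged to a start inside the span of the gene. Entries for Myh11, Myl9 and Myocd were not used here. A match describes the letters of a window and is neither a measured binding site nor a cause of the values below, and the lack of a match covers only these 300 bases.

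The arrays were alike in overall signal. Median log2 signals were 8.48 and 8.52 on the POG arrays and 8.36, 8.43 and 8.45 on the DMSO arrays, and over all probe sets the median difference was 0.11 (POG minus DMSO, log2). The SD of the log2 differences over probe sets was 0.99 to 1.04 between a POG and a DMSO array, and 0.32 to 0.37 between arrays treated alike. Although the labels speak of biological replicates, they name no separate cultures or animals behind the arrays, so the p-values measure the spread between these 5 arrays alone, and that spread may be technical.

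Of the 8 genes, 7 were lower in POG-treated cells and 0 were higher, at a limma adjusted p under 0.05 over all probe sets. Probe sets called lower made up 19.6% of all probe sets and probe sets called higher 26.7%, as 46.3% changed in either direction. No member was higher at an unadjusted p under 0.05 either, and the methods' t-test called 0 higher. Every POG array lay below every DMSO array in these 7 genes, as in 28.5% of all probe sets, and above every DMSO array in 0 of the 8 genes, as in 38.3% of all probe sets. The median difference over the 8 genes was -4.15 on the log2 scale, beside 0.11 over all probe sets. The 8 genes and the lists below were chosen with earlier results of these data known. Their shares beside those of all probe sets are therefore a description and not a test. Smtn was the gene that did not pass. Each RNA sample is a bulk extract, in which fewer cells with a smooth muscle programme and less RNA in each cell cannot be told apart.

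**Figure D1:**
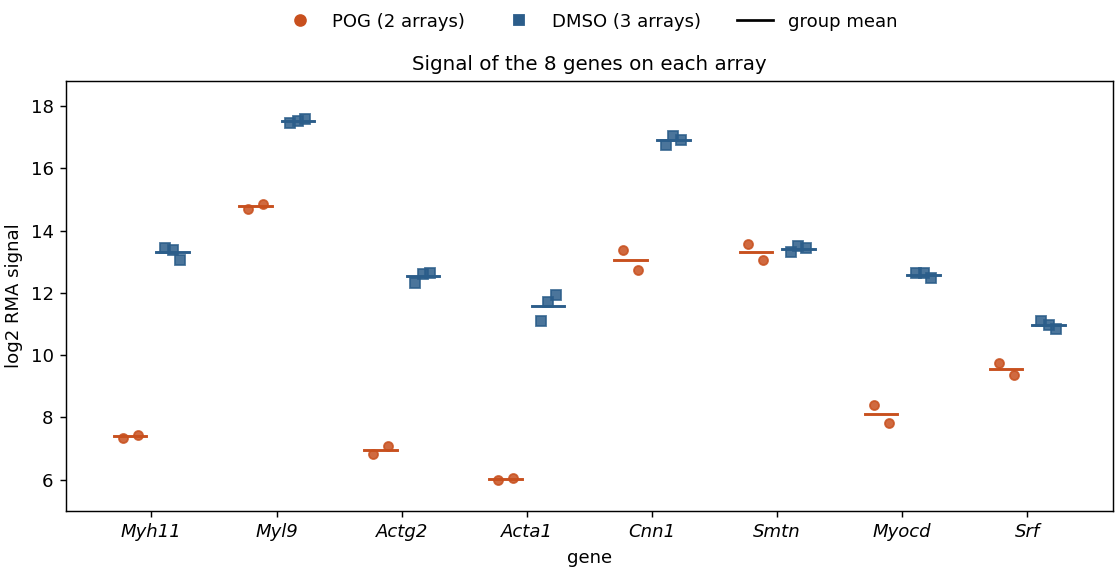
Log2 RMA signal of the 8 genes on each array, with POG arrays as circles and DMSO arrays as squares, and a line for each group mean. Circles lie below squares with no overlap for Myh11, Myl9, Actg2, Acta1, Cnn1, Myocd and Srf, while the Smtn values of both groups lie between 13.06 and 13.57.

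The thick filament genes fell. Myh11 encodes the myosin heavy chain that marks differentiated smooth muscle. Its log2 signal was 7.35 and 7.42 on the POG arrays, against 13.44, 13.38 and 13.07 on the DMSO arrays. Both POG arrays were about 6 units below the DMSO mean, with no overlap, and the highest POG value stood 5.65 below the lowest DMSO value. The difference was -5.91 ± 0.18 (SE, 95% interval -6.32 to -5.51, limma adjusted p = 1.79e-08, 2 POG and 3 DMSO arrays), and it ranked 7 from the lowest among the 10141 probe sets. Myl9 encodes the regulatory light chain whose phosphorylation starts contraction. It had log2 signals of 14.70 and 14.87 on the POG arrays, against 17.45, 17.52 and 17.57 on the DMSO arrays. The arrays of each group lay close together and the groups were well apart. Myl9 fell by 2.73 on the log2 scale (SE 0.17, 95% interval -3.10 to -2.36, adjusted p = 1.27e-06).

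Other myosin II genes moved less or did not pass. Myh9, the nonmuscle heavy chain IIA found in most cells, fell by 1.18 (SE 0.18, adjusted p = 0.000587), with log2 signals of 16.24 and 16.13 on the POG arrays and 17.57, 17.25 and 17.28 on the DMSO arrays. Myh10, the nonmuscle heavy chain IIB, was at 0.34 ± 0.16 (95% interval -0.03 to 0.71, adjusted p = 0.113). It passed as higher in 2 of 13 alternatives, the methods' t-test among them. The interval of Myh11 lay wholly below those of both nonmuscle chains, a comparison of intervals and not a test between genes. Of the light chains, the essential chain Myl6 fell by 1.05 (SE 0.20, adjusted p = 0.00223), and the call was lost with the methods' t-test (adjusted p = 0.0616). The nonmuscle regulatory chain Myl12a was at -0.49 ± 0.17 (adjusted p = 0.0348), a call lost in 6 of 13 alternatives. Myl2, a light chain known from heart and slow skeletal muscle, was at 0.09 ± 0.17 (adjusted p = 0.67).

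The muscle actins fell as well. Actg2 encodes the gamma actin of gut and other visceral smooth muscle. It had log2 signals of 6.83 and 7.07 on the POG arrays, against 12.33, 12.60 and 12.65 on the DMSO arrays. The groups did not overlap, and Actg2 differed by -5.58 ± 0.18 (95% interval -5.99 to -5.17, adjusted p = 2.64e-08, rank 9 from the lowest). Acta1 encodes skeletal muscle alpha actin, which is also made in small amounts outside skeletal muscle. Its signal was 6.0 and 6.06 on the POG arrays, against 11.11, 11.71 and 11.94 on the DMSO arrays. The DMSO arrays spanned 0.83 here, the widest range of any of the 8 genes within a group, and still lay clear of the POG arrays. Acta1 differed by -5.56 ± 0.24 (95% interval -6.09 to -5.02, adjusted p = 1.64e-07, rank 10). The POG mean of 6.03 is under 6.17, the lower quartile of all signals, so it may be background and the difference may be compressed.

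Acta2, the alpha actin of vascular smooth muscle and myofibroblasts, remained bright in both groups, with log2 signals of 15.92 and 16.07 on the POG arrays and 18.50, 18.31 and 18.30 on the DMSO arrays. It fell by 2.38 on the log2 scale (SE 0.17, adjusted p = 3.75e-06), and its 95% interval of -2.76 to -1.99 did not reach those of Actg2 and Acta1. The cytoplasmic gamma actin Actg1 was at -0.45 ± 0.18 (adjusted p = 0.0628) and passed in 5 of 13 alternatives, among them centring each array on its median. Actin messages are close in sequence, and cross-hybridisation between their probes was not tested.

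Of the members that bind the thin filament, Cnn1 fell and Smtn did not pass. Calponin, Cnn1, which binds actin and tropomyosin and slows myosin, had log2 signals of 13.38 and 12.74 on the POG arrays, against 16.74, 17.04 and 16.91 on the DMSO arrays. POG replicate 2 was the lower of the POG arrays, and both were over 3 units below every DMSO array. The difference was -3.84 ± 0.22 (95% interval -4.32 to -3.35, adjusted p = 7.35e-07). Smoothelin, Smtn, a cytoskeletal protein of contractile smooth muscle that has long and short isoforms, had signals of 13.57 and 13.06 on the POG arrays, against 13.31, 13.50 and 13.45 on the DMSO arrays. The POG arrays lay on either side of the DMSO arrays. The difference of -0.10 ± 0.20 did not pass (adjusted p = 0.683), and its 95% interval of -0.54 to 0.33 bounds the change on this scale without showing that the levels were the same. Without POG replicate 2 the difference was 0.15. The probe set gives 1 value for the gene, and its isoforms were not analysed here. Transgelin, Tagln, another early smooth muscle marker, fell by 1.96 (SE 0.17, adjusted p = 1.68e-05), and the broadly expressed calponin Cnn3 by 1.23 (SE 0.17, adjusted p = 0.000364). Tagln2, the transgelin of nonmuscle cells, was at 0.44 ± 0.17 (adjusted p = 0.0568) and passed in 4 of 13 alternatives, quantile normalization among them.

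**Figure D2:**
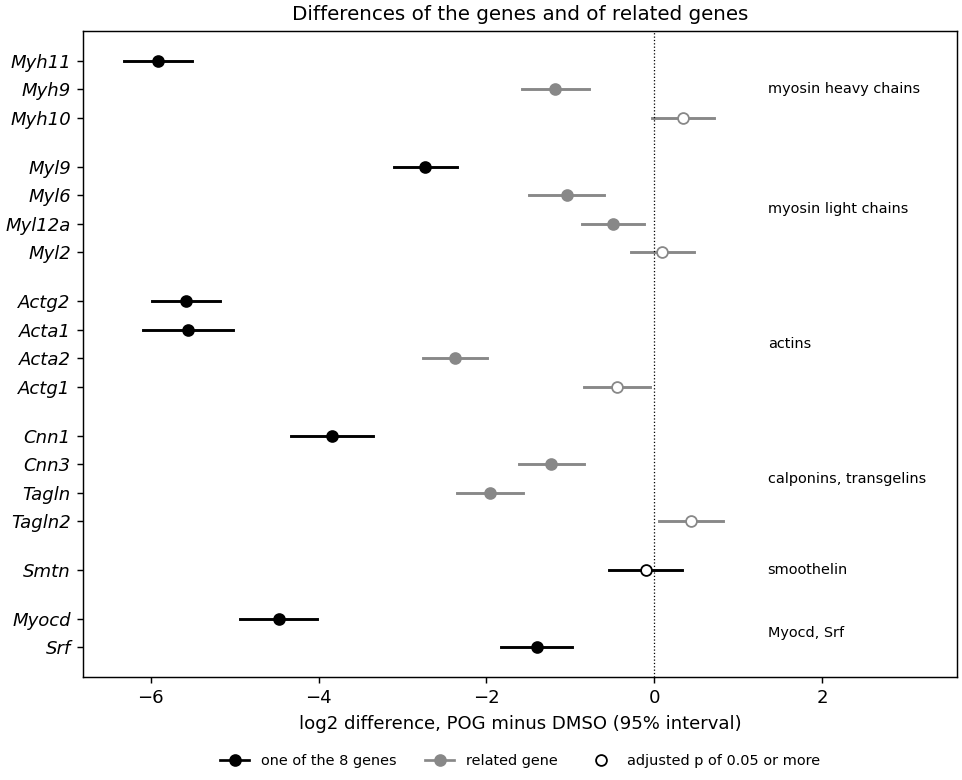
Log2 difference (POG minus DMSO) with its 95% interval from the limma fit for the 8 genes, in black, and for related genes, in grey, grouped by protein family. Open points did not reach an adjusted p under 0.05, and the intervals of Myh11, Actg2, Acta1, Myl9 and Cnn1 lie below those of every related gene plotted in the same family.

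Both regulators were lower. Myocardin, Myocd, had log2 signals of 8.40 and 7.81 on the POG arrays, against 12.63, 12.63 and 12.47 on the DMSO arrays. The DMSO arrays nearly coincided and both POG arrays were more than 4 units below them. Myocd fell by 4.47 on the log2 scale (SE 0.21, 95% interval -4.93 to -4.01, adjusted p = 2.09e-07) and ranked 24 from the lowest of all probe sets. Srf had signals of 9.76 and 9.36 on the POG arrays, against 11.08, 10.98 and 10.83 on the DMSO arrays. The groups were separate, with 1.07 between the highest POG and the lowest DMSO array, the smallest gap among the 7 genes that passed. Srf, which is expressed in nearly all cells, fell by 1.40 (SE 0.19, 95% interval -1.82 to -0.98, adjusted p = 0.000275). As many as 5.09% of all probe sets had a difference at or below that of Srf, against 0.237% for Myocd, 1.23% for Myl9, 0.493% for Cnn1 and less than 0.1% for Myh11, Actg2 and Acta1. The 2 full CArG boxes printed above are in the window of Srf itself, a gene long known to be among its own targets.

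**Figure D3:**
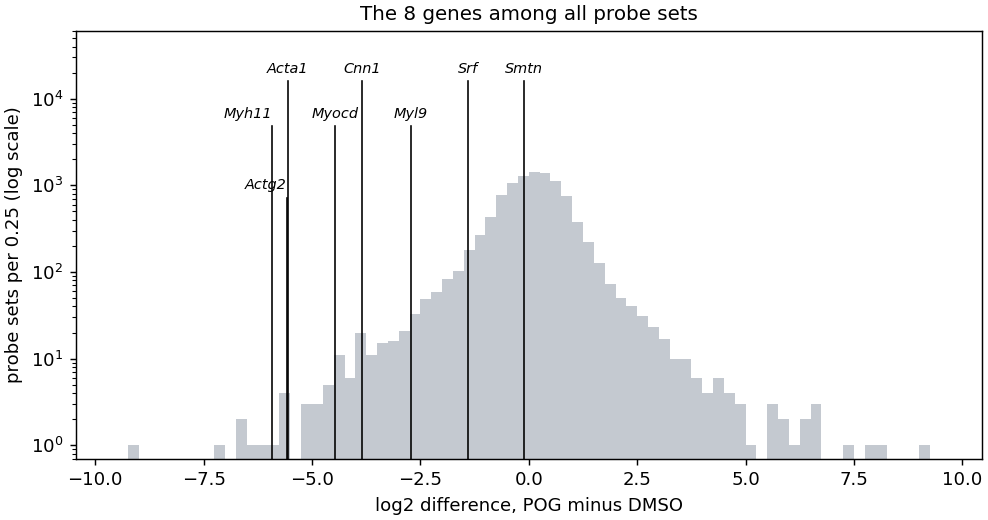
Number of probe sets (log scale) by log2 difference, POG minus DMSO, in steps of 0.25 over all 10141 probe sets, with a line for each of the 8 genes. Myh11, Actg2 and Acta1 stand in the far left tail, with differences between -5.91 and -5.56, Srf lies at -1.40 on the left shoulder, and Smtn lies near the centre at -0.10.

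Between the POG arrays the genes differed in both directions. POG replicate 2 was below POG replicate 1 in 4 of the 8 genes, with differences of -0.64 for Cnn1, -0.59 for Myocd, -0.51 for Smtn and -0.40 for Srf. In the other 4 genes POG replicate 2 was the higher, by 0.24 for Actg2, 0.17 for Myl9, 0.07 for Myh11 and 0.06 for Acta1. All these steps are smaller than the gap between the groups for the 7 genes that passed. At the thresholds of the study's methods, a t-test p under 0.05 and a fold change over 1.5, the same count of 7 was lower and 0 higher, where 14.3% of all probe sets were lower and 18.4% higher. Cnn1 and Myl9 exceeded 16 on the DMSO arrays, the largest log2 value that a 16-bit scanner can record, and 262 probe sets did so on at least 1 of the 5 arrays. The deposited scale is therefore not the scanner's own, and a step of 1 is not shown to be an exact doubling of signal or RNA.

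Other genes of the contractile apparatus were mostly lower. Of 43 listed genes 33 were measured, of which 25 fell, 1 was called higher and 7 did not pass, with a median difference of -1.54. The fallers were 75.8% of those measured, beside 19.6% of all probe sets. The gene called higher made up 3.03%, beside 26.7%. The largest fall in this list was that of Kcnmb1, the beta subunit of the calcium-activated potassium channel of smooth muscle. Its log2 signal was 6.54 and 6.35 on the POG arrays, against 10.87, 10.18 and 11.25 on the DMSO arrays, a difference of -4.32 ± 0.28 (adjusted p = 1.73e-06). The genes with the smallest p in the list also included Pgm5, or aciculin, of dense plaques (-3.46), the calcium store protein Casq2 (-3.44), phospholamban Pln, which restrains the calcium pump (-2.96), and the amine oxidase Aoc3 (-2.53). Further genes were chosen by their role after their values were seen. The tropomyosins Tpm1 (-2.01) and Tpm2 (-2.12), which lie along the actin filament, fell, as did leiomodin Lmod1 (-2.24), vinculin Vcl (-1.51) and caldesmon Cald1 (-1.13). A second probe set of Tpm2 fell by 2.33.

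Genes for the enzymes that set light chain phosphorylation gave calls that depended on the processing. Myosin light chain kinase, Mylk, had low signals of 5.48 and 4.82 on the POG arrays, against 6.50, 5.66 and 5.57 on the DMSO arrays. Its difference of -0.76 ± 0.30 did not pass (adjusted p = 0.06), although the groups did not overlap. It passed in 4 of the alternatives run for it. Its DMSO mean was under the lower quartile of all signals. The myosin phosphatase subunit Ppp1r12a was at -0.50 ± 0.18 (adjusted p = 0.0393) and its relative Ppp1r12b at 0.57 ± 0.20 (adjusted p = 0.0422), the only member of the list called higher. The call was lost in 6 of 13 alternatives for Ppp1r12a, and for Ppp1r12b in 9 of those run for it. After centring or quantile normalization the list had 0 genes called higher.

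Cytoskeletal SRF targets reached through myocardin-related factors were mostly lower too. Of 53 listed genes 39 were measured, 5 of them shared with the contractile list. Of the 39, 28 fell, 1 rose and 10 did not pass, with a median of -1.21. The fallers were 71.8% of those measured and the riser 2.56%, beside 19.6% of all probe sets called lower and 26.7% higher. The collagen receptor subunit Itga1 fell by 3.73 (SE 0.16), and the Notch ligand Jag1 (-2.69), the LIM protein Fhl1 (-2.53), the fibronectin receptor subunit Itga5 (-2.43), the small heat shock protein Hspb1 (-2.36) and the actin regulator Enah (-2.25) fell as well. The gene that rose was plakophilin Pkp2 (0.78 ± 0.20, adjusted p = 0.00989), named after its value was seen, with the call lost in 2 of 13 alternatives.

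Immediate early SRF targets reached through ternary complex factors were mostly lower as well. Of 21 listed genes 18 were measured, and 14 fell, 0 rose and 4 did not pass, with a median of -1.51. The fallers were 77.8% of those measured, beside 19.6% of all probe sets called lower and 26.7% called higher. At an unadjusted p under 0.05, 1 was higher and 14 lower, and the methods' t-test after adjustment called 0 higher and 9 lower. The MAP kinase phosphatases Dusp5 (-3.27) and Dusp6 (-2.18), which act on ERK, the pseudokinase Trib1 (-3.24), Ier3 (-3.02), the nuclear receptor Nr4a3 (-2.37) and the AP-1 factor Fosl1 (-2.16) fell. Egr1, a classical serum response gene, had signals of 16.13 and 15.86 on the POG arrays, against 15.64, 15.65 and 15.35 on the DMSO arrays, and did not pass at 0.45 ± 0.18 (adjusted p = 0.0707). It was named after its value was seen, and passed as higher in 2 of 13 alternatives.

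**Figure D4:**
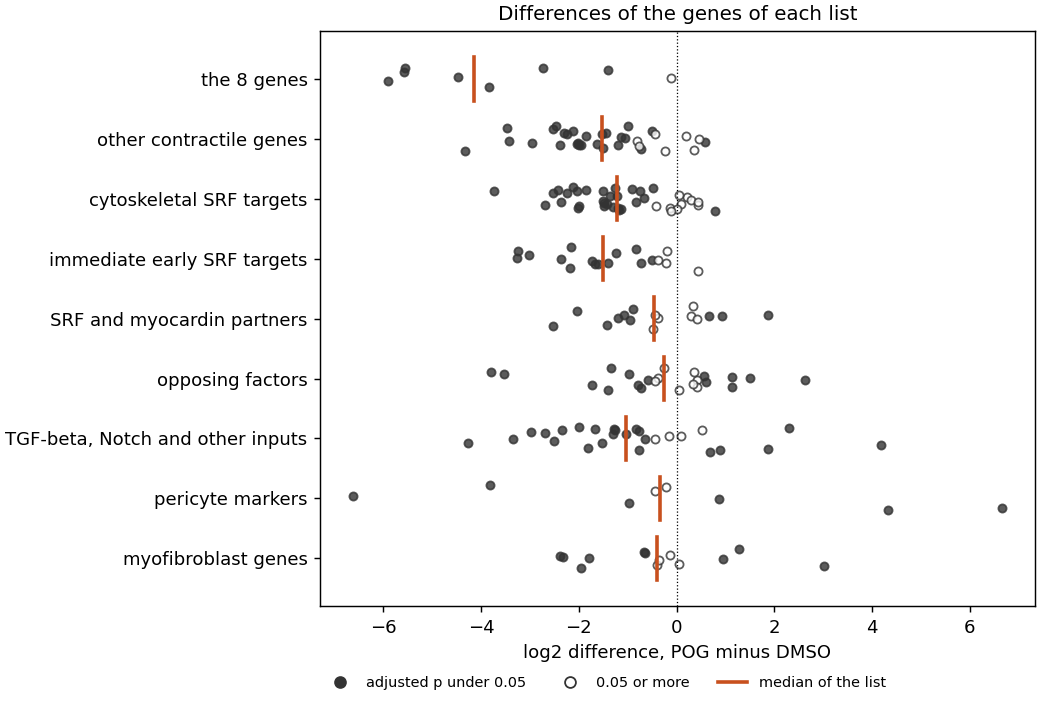
Log2 difference (POG minus DMSO) of each measured gene in the lists named on the vertical axis, with filled points for an adjusted p under 0.05, open points otherwise, and a bar at the median of the list. The medians are -4.15 for the 8 genes, -1.54, -1.21 and -1.51 for the other contractile genes and the cytoskeletal and immediate early SRF targets, and between -1.03 and -0.25 for the lists below them.

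Known partners of SRF and myocardin moved in both directions. Of 36 listed genes 16 were measured, 1 of them shared with the contractile list. Of the 16, 7 fell, 3 rose and 6 did not pass, with a median of -0.46. The fallers were 43.8% of those measured, beside 19.6% of all probe sets. The share of the 3 risers lay under the 26.7% of all probe sets called higher. The myocardin-related factors themselves had no named probe set in the table and were not analysed here. Fhl1, a LIM-only protein counted among the cytoskeletal targets too, had the largest fall of the list. The MADS-box factors Mef2a (-2.03) and Mef2d (-1.43), which are related to SRF, came next. The cysteine-rich LIM proteins Csrp1 (-1.20) and Csrp2 (-0.90), which bridge SRF and GATA factors, the TEA-domain factor Tead3 (-1.08) and the ternary complex factor Elk3 (-0.95) fell. The TGF-beta effector Smad3 rose by 1.88 ± 0.21 (adjusted p = 9.31e-05), with log2 signals of 10.96 and 11.04 on the POG arrays and 9.18, 8.76 and 9.43 on the DMSO arrays. The homeodomain factor Prrx1 (0.94) and Tead2 (0.67) rose as well, Tead2 with both means under the lower quartile of signals and its call lost without POG replicate 2. Tead1 (-0.47), the coactivator TAZ, Wwtr1 (-0.44), Elk1 (-0.39), Fhl2 (0.30), Gata6 (0.34) and Hopx (0.41) did not pass. Even so, Tead1 passed in 5 of 13 alternatives, Wwtr1 in 3, and Elk1 in 1 of those run for it.

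Factors reported to oppose myocardin or smooth muscle genes also went both ways. Of 33 listed genes 23 were measured, of which 9 fell, 6 rose and 8 did not pass, with a median of -0.25. The fallers were 39.1% of those measured, beside 19.6% of all probe sets, and the risers were 26.1%, close to the 26.7% of all probe sets called higher. With the methods' t-test after adjustment 3 were lower and 4 higher. The calcineurin-regulated factor Nfatc1 (-3.79), the homeodomain factor Msx2 (-3.52) and the forkhead factor Foxo1 (-1.34) fell, the call of Foxo1 being lost with the methods' t-test. Msx2 encodes a factor that can block the SRF and myocardin complex. It had log2 signals of 5.92 and 5.59 on the POG arrays, against 9.02, 9.17 and 9.64 on the DMSO arrays, and its POG mean may be background. The PDGF receptor Pdgfra rose by 2.64 ± 0.17 (adjusted p = 1.82e-06), with signals of 14.11 and 13.86 on the POG arrays and 11.41, 11.33 and 11.31 on the DMSO arrays. The Krüppel-like factor Klf5, known from dedifferentiating smooth muscle, rose by 1.5 and the histone demethylase Kdm4a by 1.14.

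Genes known to act upstream of smooth muscle genes mostly had lower values. The arrays measured RNA, and the activity of these pathways was not measured. Among TGF-beta, Notch and other inputs, 27 of 35 genes were measured, and 18 fell, 5 rose and 4 did not pass, with a median of -1.03. The fallers were 66.7% of those measured, beside 19.6% of all probe sets. They include Jag1, which is counted among the cytoskeletal targets too. The risers were 18.5%, under the 26.7% of all probe sets called higher. The sphingosine 1-phosphate receptor S1pr3 fell by 4.26 (SE 0.21), with log2 signals of 8.76 and 9.29 on the POG arrays and 13.04, 13.38 and 13.43 on the DMSO arrays. Smad7, an inhibitor that TGF-beta itself induces, fell by 3.35, and the integrin Itgb3 (-2.98) and the ligand Tgfb3 (-2.51) fell too. The ligand Tgfb1 (-1.82) and the receptor Tgfbr1 (-2.35), named after their values were seen, fell as well. The co-receptor Tgfbr3 rose by 4.19 ± 0.17 (adjusted p = 1.32e-07), and so did Smad3. The other genes that rose, named after their values were seen, were the angiotensin receptor Agtr1a (2.29), the Notch effector Rbpj (0.89) and Smad4 (0.68). The call was lost in 2 of 13 alternatives for Rbpj and in 1 for Smad4.

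Marker genes of other cells that can carry a contractile programme were read beside these results. Of 13 pericyte and mural cell markers 8 were measured. Mcam (-6.63), Cspg4 (-3.81) and Pdgfrb (-0.98) fell, and Ndufa4l2 (6.66), Anpep (4.33) and Cox4i2 (0.86) rose. Each direction held 37.5% of the 8, beside 19.6% of all probe sets called lower and 26.7% called higher. The mean log2 level over these markers was 8.72 and 8.91 on the POG arrays and 8.80 to 8.88 on the DMSO arrays. Rgs5, Abcc9 and Kcnj8, which define pericytes, had no named probe set and were not analysed here. Of 21 myofibroblast genes 13 were measured, 2 of them shared with the contractile list. Of the 13, 6 fell and 3 rose. The fallers were 46.2% of those measured and the risers 23.1%, beside 19.6% of all probe sets called lower and 26.7% higher. Those that fell were Acta2, Tagln, periostin Postn (-2.33), Col5a1 (-1.79), Ccn2 (-0.67) and Col11a1 (-0.65), and those called higher were Cthrc1 (3.01), Lrrc15 (1.27) and Fap (0.96). The mean level was 14.32 and 14.40 on the POG arrays and 14.71 to 14.86 on the DMSO arrays. Ccn2, Col11a1 and Fap were named after their values were seen, and the call was lost in 5 of 13 alternatives for Fap, in 2 for Col11a1, and in 1 each for Ccn2 and Lrrc15. The part of a pericyte or myofibroblast share of the cells in the results above was not tested.

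Few markers of striated muscle could be read. Of 32 skeletal muscle markers 4 were measured, with a mean log2 level of 4.96 and 5.31 on the POG arrays and 5.97 to 6.05 on the DMSO arrays, all under the lower quartile of signals. The M-band protein Myom1 (-1.76) and caveolin Cav3 (-1.06) fell, both calls being lost with the methods' t-test, and leaving out single arrays gave Myom1 values between -2.41 and -1.12. The determination factors Myod1 and Myog had no named probe set and were not analysed here, so Acta1 could not be read beside them. Of 17 heart muscle markers 4 were measured, with a mean of 7.75 and 7.77 on the POG arrays and 8.75 to 8.77 on the DMSO arrays. Of these, Pln and Nppb (-0.75) fell, the call of Nppb being lost in 2 of the alternatives run for it.

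Markers of the labelled cells and of blood and vessel cells were also measured. Among surface markers of mesenchymal and tendon progenitor cells, Thy1, named with Eng and Scx after the values were seen, was bright in both groups, at 16.74 and 16.56 on the POG arrays and 16.57, 16.59 and 16.60 on the DMSO arrays. Cd44 (-1.26) and Itgb1 (-0.78) fell from bright signals. Eng did not pass (-0.41), although it passed as lower in 4 of 13 alternatives, the methods' t-test among them. Cd34, a marker of blood progenitors and vessels that the study used as a negative marker, was dim. It fell (-1.39), a call lost with the methods' t-test. Of 12 measured tendon markers 5 rose, or 41.7%, beside 26.7% of all probe sets. The 1 that fell made up 8.33%, beside 19.6% of all probe sets. Lum (9.12), Dcn (8.24), Fmod (6.57), Thbs4 (2.68) and Comp (0.96) were higher and Egr2 (-1.67) was lower. Comp had both means under the lower quartile of signals, was at 0.52 without POG replicate 2 and lost its call there and with the methods' t-test, as Egr2 did with that test. The tendon factor Scx did not pass (-0.31) and had both means under the lower quartile of signals. All 5 measured leukocyte markers of 14 rose, namely Cd53 (2.31), Lyz2 (2.06), Cd68 (1.52), Fcer1g (1.22) and Cd14 (1.09), and 3 to 5 of them passed when an array was left out. Among all probe sets 26.7% were called higher. All of the 5 but Cd14 had a DMSO mean under the lower quartile of signals, and Fcer1g had its POG mean there too. The 5 markers together had a mean log2 level of 6.59 and 7.05 on the POG arrays and 5.0 to 5.43 on the DMSO arrays. Ptprc, which defines leukocytes, was not analysed here. Of 4 measured endothelial markers of 13, Kdr rose (1.85) and Cd34 fell, with a mean of 6.90 and 6.93 on the POG arrays and 6.88 to 7.15 on the DMSO arrays. The part of these cells in the fall of the contractile genes was not tested.

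Genes with the most similar profiles over the 5 arrays were found for Myh11, Cnn1 and Myocd, as the root mean square distance between log2 profiles centred on each gene's mean. Closest to Myh11 were the cyclooxygenase Ptgs2 (distance 0.194, difference -5.68), the orphan receptor Gprc5a (0.327, -5.51) and the taurine transporter Slc6a6 (0.36, -5.23). Closest to Cnn1 were the Nogo receptor relative Rtn4rl1 (0.129, -4.05), Nfatc1 (0.158, -3.79) and Itga1 (0.187, -3.73). Closest to Myocd were the thioredoxin-binding protein Txnip (0.153, -4.32), Rtn4rl1 (0.231) and the developmental regulator Lbh (0.253, -4.74). With 5 arrays in 2 groups, this likeness reflects mainly the size of the difference between the groups.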

How the data were processed

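RNA of 2 POG-treated and 3 DMSO-treated samples was hybridised to Affymetrix rat arrays. The authors deposited log2 values, 1 for each probe set and array, from robust multi-array average (RMA) with default settings and global scaling. RMA removes background, sets the arrays on a common scale and joins the probes of a probe set, and the sources used here give no version of it. A second deposited table was identical (largest difference 0). The platform annotation gave 1 gene symbol for 7240 of 10141 probe sets, and 0 symbols changed against the GRCr8 gene table. No detection calls or probe sequences were used. Precision is limited by the number of arrays. More arrays are stated for the heatmap of the study than were used here, and the rest were not analysed here.

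Groups were compared with limma 3.58.1 in R 4.3.3 (lmFit and eBayes, two-sided, no covariate), and p-values were adjusted by Benjamini-Hochberg over all 10141 probe sets, with a threshold of 0.05. Where a gene had several probe sets, the brightest stood for it. The fit was tested on simulated data. Genes named were the 8 members, every measured related myosin, actin, calponin, transgelin and SRF partner, up to 6 called genes with the smallest p in each other list, and the 3 nearest profiles of Myh11, Cnn1 and Myocd. Values were already seen when a further 21 were chosen. A further list of upstream genes is not reported here. Members and lists were chosen with earlier results of these data known. Alternatives were the second table, quantile normalization, median centring, the brighter probe sets (mean log2 signal 8.45 or above), the replicate block, array weights, eBayes with trend and robust settings, the methods' equal-variance t-test, and each array left out in turn.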

Additional observations from a re-analysis of the deposited data

How the results depend on the processing

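The 8 genes gave 7 lower and 0 higher calls in all 13 alternatives. Smtn, which did not pass, turned to 0.15 without POG replicate 2 (adjusted p = 0.629), with a range of -0.36 to 0.15 when an array was left out. Thy1, which did not pass, was at -0.0233 after centring and -0.0267 without POG replicate 1. Over all probe sets, 1987 were lower and 2707 higher. With the methods' t-test after adjustment these counts were 1014 and 1064, among the 5071 brighter probe sets 1334 and 1560, and when an array was left out 1314 to 1931 and 1586 to 2480, the lowest of each without POG replicate 2, a fit that takes the lone POG array to have the spread of the DMSO group. Of the 100 named genes that passed, all 100 kept their direction and 79 kept their call in every alternative run for them, and 9 of the 16 that did not pass did so in some alternative. Direction could not change in the second table, the brighter probe sets, the trend and robust settings or the t-test, which keep the main difference. The second table was identical to the first, so calls could not change there either, here or in any count out of 13 alternatives. The median difference over all probe sets was 0.05 after quantile normalization and 0.02 after centring. Arrays with the same replicate number did not deviate together (correlations 0.0042 and 0.0052), and the fit with the replicate block, in which DMSO replicate 3 has no partner, called 1731 lower and 2462 higher. An alternative that uses every probe set of a gene was not run, and each of the 8 genes had 1. With 2 POG arrays and no detection calls, a difference of dim genes such as Mylk, Scx or Tead2 cannot be separated from background. Group means under the lower quartile also underlie the rises of Tgfbr3, Agtr1a, Ndufa4l2, Kdr, Ppp1r12b and Lum, in DMSO-treated cells. For the rises of Cox4i2, Comp and Fcer1g the means of both groups lay there. The same holds for the POG-treated cells in the falls of Gprc5a, Rtn4rl1, Txnip, Myom1 and Cd34.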
